A study of Homo sapiens with 9 samples.

Results

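The 38 genes described here encode proteins of the Fanconi anemia pathway and of homologous recombination. They were chosen by name as a functional set, and the rows of the count tables were matched by gene symbol, with MRE11A standing for MRE11. All 38 were listed among the 16008 genes found in both tables, and all 38 passed the filter on low counts in every comparison.

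RNA-Seq had been performed on subcutaneous xenografts of PC3, a human cell line from metastatic prostate cancer, grown in male NSG mice, which lack mature lymphocytes and natural killer cells. Each of 3 groups had 3 libraries: mice given PBS as the vehicle, mice in the P-DXd-titled group and mice in the T-DXd-titled group, at 5 mg/kg of either conjugate and, per the series record, an age of 11 weeks at injection. Either conjugate delivers the same topoisomerase I inhibitor, deruxtecan: the antibody of P-DXd, patritumab, binds HER3, and that of T-DXd, trastuzumab, binds HER2. Titles and treatment fields of the 6 treated libraries name opposite conjugates, so the groups are called by title, and the comparison of all 6 treated libraries with PBS does not depend on that conflict. The study's methods and the series record differ on how old the mice were, how large tumors were at the start and how many cycles were given. All mice carried tumors of the same parental line, and the treated tumors were residual tissue at the end of the experiment.

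The Fanconi anemia pathway recognizes crosslinks between DNA strands at stalled replication forks. Its core complex attaches ubiquitin to FANCD2 and FANCI, after which nucleases unhook the crosslink and the resulting break is repaired by homologous recombination. In that process broken ends are resected, BRCA1, PALB2 and BRCA2 prepare the resected strand for invasion of an intact copy, and joined molecules are dissolved or cut. Homologous recombination is used in S and G2 phase, and many of its genes are transcribed mainly in cycling cells. Breaks that form when a replication fork meets a trapped topoisomerase I are also substrates of this pathway.

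Total counts were 90761763 to 125538606 in PBS, 54481702 to 83721486 in P-DXd-titled and 66954114 to 73655752 in T-DXd-titled libraries. The lowest count of any of the 38 genes in any library was 35, for FANCB. Levels are given as CPM, the counts of a gene relative to the library total, after scaling by edgeR's TMM factors. PBS replicate 1 stood apart from the other PBS libraries, with a chi-square statistic of 321 and 396 per gene against PBS replicates 2 and 3, which differed from each other by 38.03 per gene. It had the highest level of the 3 PBS libraries for 31 of the 38 genes. P-DXd-titled replicate 2 also stood apart in its group, at 132 and 111 per gene against replicates 1 and 3, which differed by 41.5. Pairs of T-DXd-titled libraries differed by 17.8 to 28.9 per gene. The chi-square statistic rises with the number of counts, so its size cannot be compared directly between groups of unlike depth. The keratin of epithelial tumor cells was present, with KRT8 at 465 ± 55.2 CPM (SD, n = 3) in PBS. Whether mouse reads had been removed is not stated in the sources used here, and their part in any gene below was not tested.

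Most of the 38 genes were lower in residual tumors. In both conjugates against PBS, 28 of 38 were called lower, which required an adjusted p at or below 0.05 in edgeR's quasi-likelihood test and a fold change of at least 1.5, and 0 were called higher. Across all genes tested, 17.1% were called lower and 15.2% higher. The same 28 genes were called lower in P-DXd-titled against PBS, where 13.8% of all genes were, and in T-DXd-titled against PBS, where 15.5% were. Both comparisons share the 3 PBS libraries. Treated libraries lay below every PBS library for 31 of the 38 genes, compared with 25.5% of all genes tested. The median log2 fold change of the 38 genes against PBS was −1.19 for P-DXd-titled, −1.39 for T-DXd-titled and −1.28 for both conjugates, beside −0.0053, −0.019 and −0.014 over all genes tested. The fitted fall was at least 2-fold for 22 genes and at least 4-fold for 9, namely POLQ, FANCA, XRCC2, BRCA2, RAD54L, FANCB, BLM, RAD51AP1 and BRCA1. In bulk tumor tissue, fewer cells that express a gene and less RNA per cell cannot be told apart.

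**Figure D1:**
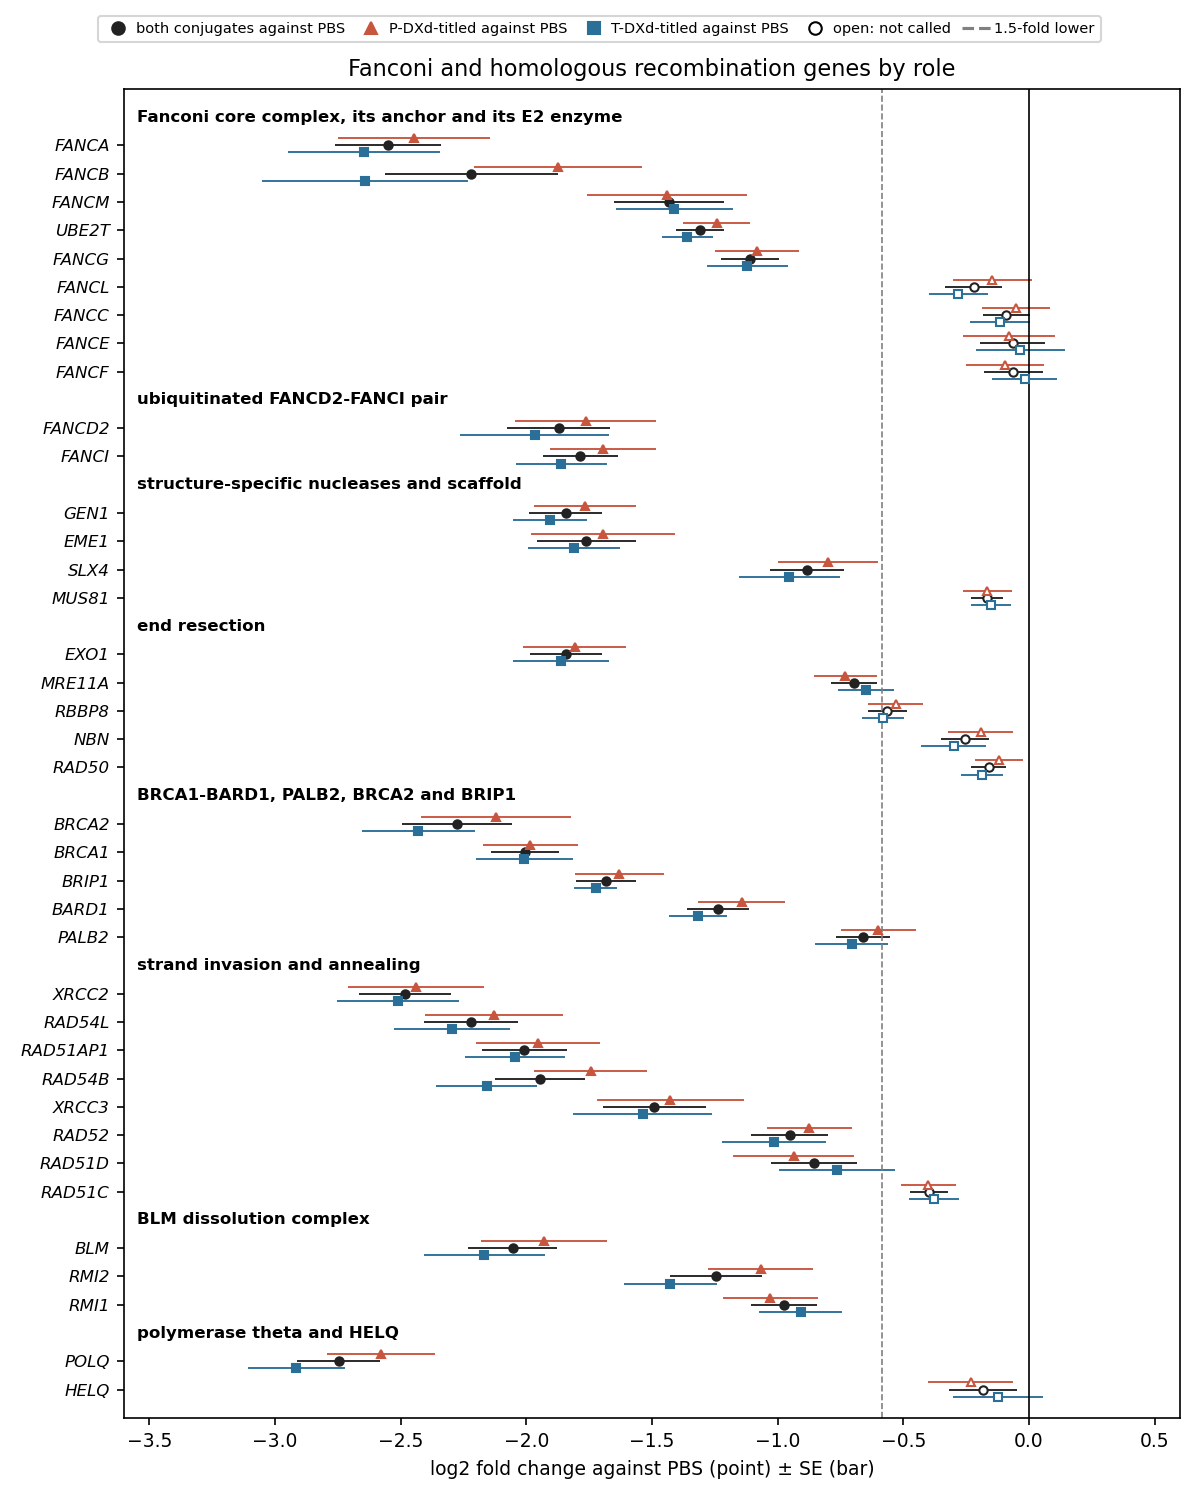
Log2 fold change against PBS of each of the 38 genes, grouped by role, with the standard error as a bar, for all 6 treated libraries (circles), the P-DXd-titled group (triangles) and the T-DXd-titled group (squares). Filled symbols are called, the dashed line marks a 1.5-fold fall, and 28 genes lie left of it in all 3 comparisons while members such as FANCC, FANCE, FANCF and RAD50 lie near 0.

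Markers of proliferation moved with these genes. All 24 genes of a proliferation list were called lower in both conjugates against PBS, with a median log2 fold change of −2.25, and their summed level was 2416 to 3986 CPM in PBS and 868 to 1083 CPM in treated libraries. MKI67, a marker of cycling cells, was at 305, 222 and 189 CPM in PBS replicates 1 to 3 and at 20.5 to 37.1 CPM in treated libraries. The part of lower proliferation in the fall of the repair genes was not tested. Lists of host cell types held genes called in either direction, beside 17.1% called lower and 15.2% higher over all genes tested. Of the fibroblast genes, 9 of 19 were called higher and 3 lower, and of the macrophage genes 5 of 9 higher and 1 lower. In the other lists, 1 of 8 endothelial genes and 11 of 12 skeletal muscle genes were called higher. Summed skeletal muscle genes were at 27.3 to 72.5 CPM in PBS, 4395 CPM in P-DXd-titled replicate 2 and 118 to 320 CPM in the other treated libraries. The endothelial markers PECAM1 and EMCN and the macrophage markers CD163, TYROBP, MRC1, C1QA and C1QC were not among the genes analysed here. Summed fibroblast genes were at 4713 to 5652 CPM in PBS and at 3339 to 4677 CPM in treated libraries. The largest falls were in the matrix genes COL6A3 (log2 −3.59) and FN1 (log2 −2.11). FN1 made up much of the sum, at 1843 to 2892 CPM in PBS and 445 to 627 CPM in treated libraries. The median log2 fold change of the 19 fibroblast genes was 0.65, and 5 of the 19 were negative. The part of host cells in the results was not tested.

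Promoter windows were examined because genes of this pathway fell together. RefSeq windows on GRCh38.p14, from 250 bases before to 50 bases after a start, were matched for 34 of the 38 genes, and these were searched on both strands for letters bound by E2F factors (TTTCCCGC, TTTGGCGC, TTTCGCGC or TTTGCCGC), for the cell cycle homology region CHR (TTTGAA or TTTAAA) and for CCAAT. E2F letters were found in the windows of 6 of the 25 matched genes that were called lower and of 1 of the 9 that were not, compared with 6.12% of 11895 genes tested that had a window. The stretches around these letters are shown so that the matches can be read beside the falls, with the match in capitals, each read 5′ to 3′ in the direction of the gene and ending at most 30 bases after the start.
FANCA (chr16:89816786-89816845, minus strand): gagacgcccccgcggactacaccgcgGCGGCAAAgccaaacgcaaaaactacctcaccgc
RMI1 (chr9:83980747-83980806, plus strand): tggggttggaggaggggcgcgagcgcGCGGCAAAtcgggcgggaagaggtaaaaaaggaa
XRCC2 (chr7:152676112-152676146, minus strand): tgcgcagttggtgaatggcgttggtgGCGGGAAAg
FANCD2 (chr3:10026409-10026466, plus strand): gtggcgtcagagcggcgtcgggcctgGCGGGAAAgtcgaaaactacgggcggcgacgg
GEN1 (chr2:17753844-17753898, plus strand): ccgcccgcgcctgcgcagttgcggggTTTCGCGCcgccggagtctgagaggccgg
EXO1 (chr1:241848182-241848233, plus strand): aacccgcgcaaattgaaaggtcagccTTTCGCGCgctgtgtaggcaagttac
FANCC (chr9:95317722-95317781, minus strand): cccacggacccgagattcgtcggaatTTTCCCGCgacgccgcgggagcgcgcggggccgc
FANCA and RMI1 held the same letters, as did XRCC2 and FANCD2, and GEN1 and EXO1. The match began 172 bases before the start in FANCA, 32 bases before it in RMI1, 46 bases before it in FANCC, and within 22 bases of it in the other 4. FANCC, the gene among these 7 that was not called, held 2 matches in its window. CHR letters were found in 5 of the 25 and 2 of the 9 genes, compared with 22.4% of genes tested, and CCAAT in 13 of the 25 and 3 of the 9, compared with 42.7%. POLQ, the gene with the largest fall, held no E2F letters but held CHR letters that began 4 bases into its transcript, shown in capitals.
POLQ (chr3:121545959-121546011, minus strand): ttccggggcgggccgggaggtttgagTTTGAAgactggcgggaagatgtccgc
BRCA2, RAD54L, FANCB, RAD51AP1 and BRCA1 fell by 4-fold or more with neither E2F nor CHR letters in their windows. These matches describe the sequence and no test of binding was made.

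Within the Fanconi core complex, the genes separated into those that fell and those that did not. FANCA, FANCB, FANCG, the anchor FANCM and the E2 enzyme UBE2T were called lower, and FANCC, FANCE, FANCF and the E3 ligase FANCL were not, which made 5 of 9 called. Gene positions here and below are those listed with the counts, on an older build than that of the promoter windows above. FANCA, a scaffold of the complex (ENSG00000187741.10, listed on chromosome 16 from 89803957 to 89883065), was at 51.9, 29.5 and 23.7 CPM in PBS replicates 1 to 3, at 7.43, 5.58 and 6.02 CPM in P-DXd-titled and at 5.07, 5.33 and 6.37 CPM in T-DXd-titled replicates. The highest treated library was below the lowest PBS library, and the level was 5.87-fold lower (log2 −2.55, SE 0.21, adjusted p = 8.07e-06). FANCB, which is X-linked and activates the catalytic module, was the least abundant member in treated tumors, at 7.84, 4.86 and 4.26 CPM in PBS, 2.01, 1.38 and 1.17 CPM in P-DXd-titled and 1.14, 0.471 and 1.097 CPM in T-DXd-titled libraries. Its fall of 2.22 on the log2 scale had the largest SE of the 38 genes (0.35, adjusted p = 0.000372). UBE2T was even across replicates, at 25.5 to 26.5 CPM in PBS and 9.29 to 11.8 CPM in treated libraries (log2 −1.31, SE 0.09, adjusted p = 4.26e-06). FANCG fell by 1.11 and FANCM by 1.43 on the log2 scale.

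The other members of the core complex were not called, and their PBS and treated libraries overlapped. FANCC was at 13.6, 16.01 and 16.4 CPM in PBS, 14.0, 14.0 and 16.03 CPM in P-DXd-titled and 14.7, 13.7 and 14.0 CPM in T-DXd-titled libraries, with a log2 fold change of −0.09 and a 95% interval from −0.30 to 0.11. FANCF, an adaptor that holds the complex together, was at 17.3 to 21.0 CPM in PBS and at 15.1 to 20.6 CPM in treated libraries (log2 −0.06, 95% interval −0.32 to 0.20). FANCE, which recruits FANCD2, was at 10.01 to 14.8 CPM and 10.4 to 11.7 CPM, respectively (log2 −0.06, 95% interval −0.35 to 0.22). FANCL was at 13.1 to 15.1 CPM in PBS and at 11.0 to 15.1 CPM in treated libraries (log2 −0.22, 95% interval −0.47 to 0.03). The overlap of FANCL came from P-DXd-titled replicate 1 alone, and its T-DXd-titled libraries, at 11.0 to 12.2 CPM, lay below every PBS library (log2 −0.28, adjusted p = 0.0933). A change of 1.5-fold either way lay outside the interval of each of these 4 genes.

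FANCD2 and FANCI, the pair that receives ubiquitin, fell alike. FANCD2 was at 60.0, 34.0 and 27.9 CPM in PBS, 11.3, 13.1 and 11.1 CPM in P-DXd-titled and 12.2, 9.03 and 9.88 CPM in T-DXd-titled libraries, a level 3.66-fold lower (log2 −1.87, SE 0.20, adjusted p = 4.16e-05). FANCI was the more abundant of the pair, at 106, 71.1 and 69.4 CPM in PBS, 26.4, 28.9 and 20.0 CPM in P-DXd-titled and 24.2, 22.7 and 20.9 CPM in T-DXd-titled libraries, a level 3.45-fold lower (log2 −1.78, SE 0.15, adjusted p = 8.52e-06). PBS and treated libraries did not overlap for either gene.

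Of the nucleases that cut crosslinked or joined DNA, 3 of 4 genes were called lower. GEN1, a resolvase of Holliday junctions, was at 36.4, 29.2 and 28.3 CPM in PBS and at 6.74 to 10.6 CPM in treated libraries (log2 −1.84, SE 0.15, adjusted p = 6.34e-06). EME1, the non-catalytic partner of MUS81, was at 16.04, 14.5 and 11.1 CPM in PBS and at 2.92 to 5.91 CPM in treated libraries (log2 −1.76, SE 0.20, adjusted p = 4.64e-05). MUS81, the catalytic subunit of the same heterodimer, stayed close to its PBS level, at 41.2 to 43.6 CPM in PBS and 36.2 to 40.004 CPM in treated libraries. Its groups did not overlap, its log2 fold change was −0.17 with a 95% interval from −0.31 to −0.02 (adjusted p = 0.0467), and it was not called. SLX4, a scaffold for MUS81 and EME1, was at 27.3, 21.4 and 16.1 CPM in PBS and at 9.99 to 13.2 CPM in treated libraries (log2 −0.88, SE 0.15, adjusted p = 0.000541).

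Of the end resection genes, 2 of 5 were called lower, and their median log2 fold change of −0.56 was the closest to 0 among the role groups. EXO1, the nuclease of long-range resection, was at 51.6, 34.8 and 33.9 CPM in PBS, 12.04, 12.5 and 9.46 CPM in P-DXd-titled and 10.8, 12.3 and 9.88 CPM in T-DXd-titled libraries (log2 −1.84, SE 0.14, adjusted p = 6.02e-06). MRE11A, the nuclease that starts resection, was at 56.0, 44.9 and 47.2 CPM in PBS and at 27.3 to 33.0 CPM in treated libraries (log2 −0.70, SE 0.09, adjusted p = 0.000118). The other subunits of its complex were not called: RAD50 was at 49.8 to 52.7 CPM in PBS and 43.2 to 49.8 CPM in treated libraries (log2 −0.16, 95% interval −0.31 to −0.0086). NBN, the third subunit, was at 124 to 169 CPM in PBS and 107 to 127 CPM in treated libraries (log2 −0.25, 95% interval −0.47 to −0.04). RBBP8, the cofactor of MRE11A also called CtIP, was at 118, 125 and 129 CPM in PBS and at 76.0 to 93.8 CPM in treated libraries. Its groups did not overlap, but its fall of 0.56 on the log2 scale (SE 0.08, adjusted p = 0.000162) was just under the 1.5-fold minimum, while PALB2 lay just past it with a fall of 0.66.

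All 5 genes of the BRCA group were called lower. BRCA2, which acts on resected DNA (ENSG00000139618.10, listed on chromosome 13 from 32889611 to 32973805), was at 41.9, 28.0 and 25.0 CPM in PBS, 9.03, 7.91 and 4.65 CPM in P-DXd-titled and 6.61, 5.99 and 5.00 CPM in T-DXd-titled libraries, a level 4.84-fold lower (log2 −2.28, SE 0.22, adjusted p = 1.85e-05). BRCA1 was at 46.4, 33.8 and 29.5 CPM in PBS, 8.81, 10.1 and 8.503 CPM in P-DXd-titled and 9.73, 9.69 and 7.81 CPM in T-DXd-titled libraries, a level 4.01-fold lower (log2 −2.004, SE 0.14, adjusted p = 3.83e-06). The treated libraries of both genes were well below the lowest PBS library. BARD1, the partner with which BRCA1 forms a ubiquitin ligase, was at 17.6 to 18.5 CPM in PBS and at 6.33 to 9.22 CPM in treated libraries (log2 −1.24, SE 0.12, adjusted p = 2.50e-05). BRIP1, a helicase bound by BRCA1, was at 55.2 to 61.5 CPM in PBS and at 15.7 to 23.7 CPM in treated libraries (log2 −1.68, SE 0.12, adjusted p = 4.26e-06). PALB2, which bridges BRCA1 and BRCA2, had the smallest fall of the group, from 34.6, 25.5 and 25.7 CPM in PBS to 16.4 to 19.9 CPM in treated libraries (log2 −0.66, SE 0.11, adjusted p = 0.000485).

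Genes of strand invasion and annealing were called lower in 7 of 8 cases. XRCC2, a subunit of a strand invasion complex (ENSG00000196584.2, listed on chromosome 7 from 152341864 to 152373250), was at 46.5, 32.3 and 24.6 CPM in PBS, 7.85, 5.71 and 5.29 CPM in P-DXd-titled and 5.66, 6.73 and 5.70 CPM in T-DXd-titled libraries, a level 5.59-fold lower (log2 −2.48, SE 0.18, adjusted p = 4.57e-06). RAD51D, its partner in the same complex, was at 13.2, 7.83 and 8.14 CPM in PBS and at 4.61 to 5.95 CPM in treated libraries (log2 −0.86, SE 0.17, adjusted p = 0.0017). XRCC3 was at 48.3, 24.9 and 24.2 CPM in PBS and at 10.2 to 14.6 CPM in treated libraries (log2 −1.49, SE 0.20, adjusted p = 0.000166). PBS replicate 1 was the high library for both RAD51D and XRCC3. RAD51C, which forms complexes with these proteins, was at 27.9, 29.0 and 25.2 CPM in PBS and at 19.9 to 22.2 CPM in treated libraries, without overlap, and its log2 fold change of −0.40 (SE 0.08, adjusted p = 0.0013) was under the 1.5-fold minimum. The translocases RAD54L and RAD54B, which act in strand invasion, fell by 2.22 and 1.95 on the log2 scale, RAD51AP1, which stimulates strand invasion, by 2.01, and RAD52, an annealing factor, by 0.95.

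All 3 genes of the dissolution complex were called lower. BLM, its helicase, was at 21.7, 13.8 and 12.1 CPM in PBS, 4.20, 4.55 and 3.59 CPM in P-DXd-titled and 3.33, 3.67 and 3.56 CPM in T-DXd-titled libraries, a level 4.15-fold lower (log2 −2.05, SE 0.18, adjusted p = 1.04e-05). RMI1, a subunit that stimulates dissolution, was at 12.1 to 17.1 CPM in PBS and 6.30 to 7.66 CPM in treated libraries (log2 −0.98, SE 0.13, adjusted p = 0.000146). RMI2, which stabilizes the complex, was at 13.3 to 16.7 CPM in PBS and 4.63 to 7.89 CPM in treated libraries (log2 −1.25, SE 0.18, adjusted p = 0.000268). The helicase thus had the lowest share of its PBS level left, 24.1% compared with 50.8% for RMI1 and 42.2% for RMI2.

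POLQ, the polymerase of microhomology-mediated end joining (ENSG00000051341.9, listed on chromosome 3 from 121150278 to 121264853), had the largest fall of the 38 genes. It was at 50.3, 34.2 and 32.4 CPM in PBS, 7.21, 6.79 and 5.35 CPM in P-DXd-titled and 5.50, 5.09 and 4.89 CPM in T-DXd-titled libraries, a level 6.71-fold lower (log2 −2.75, SE 0.16, adjusted p = 2.99e-06). Every treated library was below every PBS library by a wide margin, and 14.9% of the PBS level was left. HELQ, a helicase named for its likeness to the helicase domain of POLQ, was at 12.4, 9.17 and 9.83 CPM in PBS, 9.41, 8.96 and 8.12 CPM in P-DXd-titled and 11.4, 8.79 and 8.67 CPM in T-DXd-titled libraries. Its groups overlapped, and its log2 fold change was −0.18 with a 95% interval from −0.48 to 0.12 (adjusted p = 0.27).

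**Figure D2:**
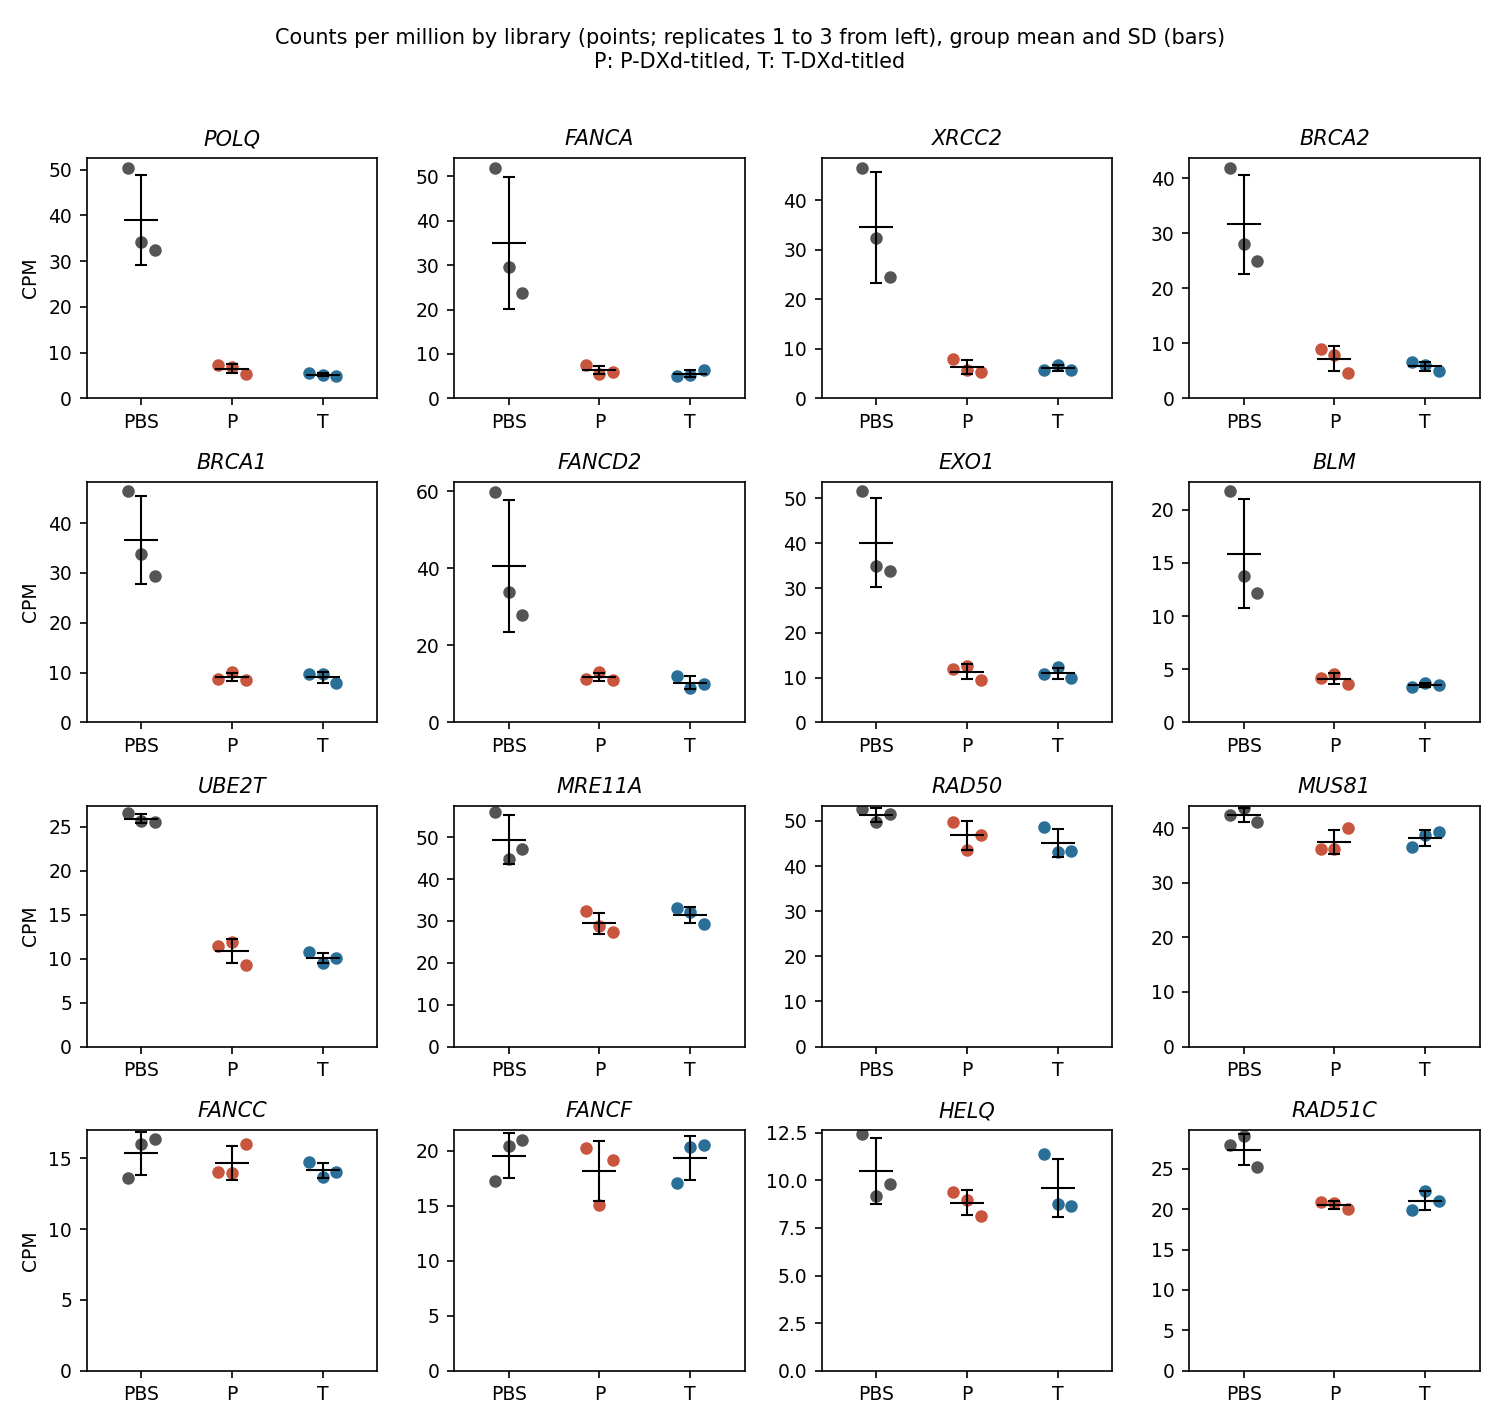
CPM of 16 of the 38 genes in each of the 9 libraries (points), with the group mean and SD as black bars and each axis starting at 0. Treated points lie below all PBS points for POLQ through MRE11A, for MUS81 and for RAD51C, while for RAD50, FANCC, FANCF and HELQ at least 1 treated library reaches the PBS range.

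Of the 10 genes not called, RBBP8, RAD51C, NBN and MUS81 had an adjusted p at or below 0.05 with a fall under 1.5-fold, and FANCL, HELQ, RAD50, FANCC, FANCE and FANCF had a higher adjusted p. For 9 of the 10, all but RBBP8, the 95% interval lay within 1.5-fold either way. All 38 log2 fold changes were negative in both conjugates against PBS, although those of FANCE, FANCF and HELQ changed sign in at least 1 comparison when single libraries were left out.

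Because proteins of this pathway work in pairs and complexes, ratios of partner genes were formed within each library for 9 pairs. In each pair the gene with the larger fitted fall was divided by its partner, so the downward direction follows from that order. The 6 treated ratios lay below the 3 PBS ratios in 6 pairs and overlapped them in 3, described here without a test. Ratios of other gene pairs were not formed, so these counts have no background share beside them. FANCD2 to FANCI kept its range, at 0.402 to 0.566 in PBS and 0.398 to 0.556 in treated libraries. The EME1 to MUS81 ratio went from 0.378, 0.332 and 0.270 in PBS libraries to 0.108, 0.163 and 0.0730 in the P-DXd-titled group and 0.101, 0.113 and 0.0960 in the T-DXd-titled group. BRCA1 to BARD1 went from 1.68 to 2.56 in PBS to 0.956 to 1.34 in treated libraries, so that BRCA1 lost more of its level than its partner. BLM to RMI1 was 1.01 to 1.27 and 0.451 to 0.717, and BLM to RMI2 was 0.904 to 1.303 and 0.476 to 0.831, respectively. Within the MRE11A complex, MRE11A to RAD50 was 0.902 to 1.06 in PBS and 0.582 to 0.742 in treated libraries, whereas NBN to RAD50 overlapped at 2.49 to 3.21 and 2.47 to 2.80. XRCC3 to RAD51C was 0.858 to 1.73 in PBS and 0.495 to 0.700 in treated libraries. RAD54L to RAD54B overlapped, at 1.61 to 2.56 in PBS and 1.26 to 2.22 in treated libraries.

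**Figure D3:**
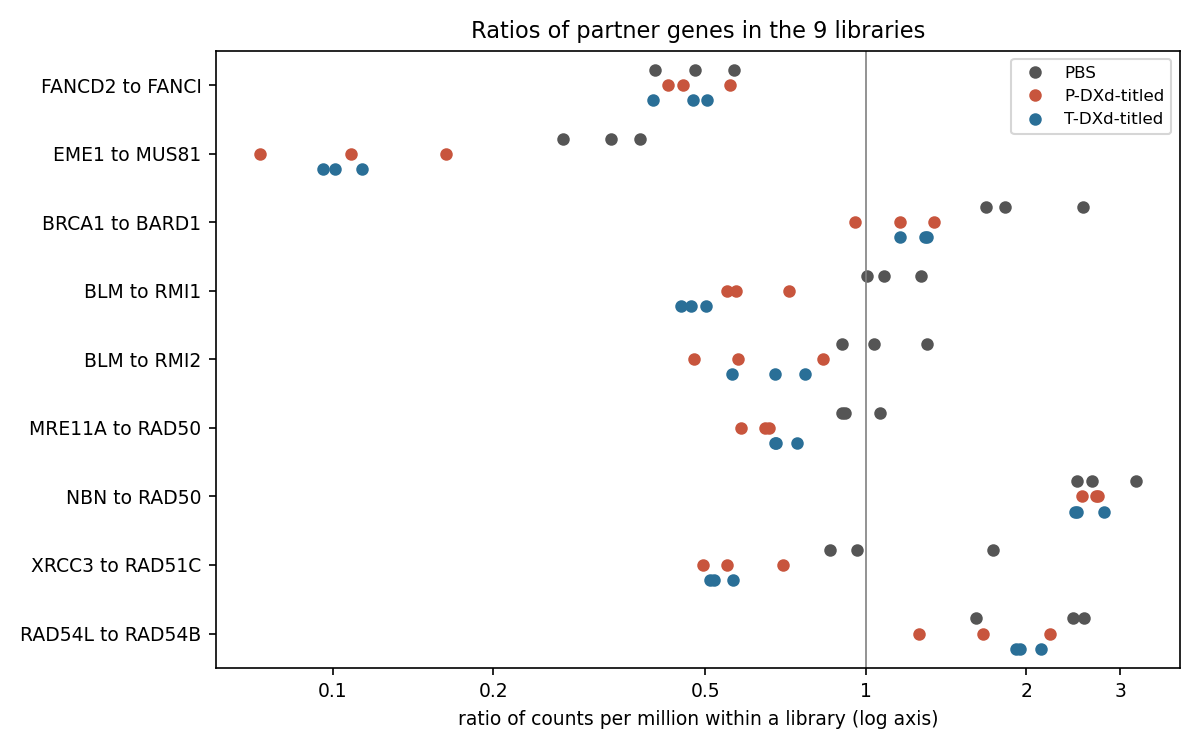
Ratio of the CPM of partner genes within each of the 9 libraries, on a log axis, with PBS (grey), P-DXd-titled (red) and T-DXd-titled (blue) libraries as points. EME1 to MUS81 shows the widest separation, from at least 0.270 in PBS to at most 0.163 in treated libraries, while FANCD2 to FANCI, NBN to RAD50 and RAD54L to RAD54B overlap.

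Levels per kilobase of the canonical transcript allow the genes to be ordered. In PBS, RBBP8 (37.8 ± 1.77 CPM per kilobase, SD, n = 3), NBN (31.0 ± 5.04) and UBE2T (29.5 ± 0.599) were the highest, and BRCA2 (2.65 ± 0.753), FANCM (2.03 ± 0.639), FANCB (1.87 ± 0.634) and RAD51D (0.977 ± 0.304) the lowest. NBN and UBE2T did not differ beyond their spread, nor did FANCM and FANCB. In treated libraries, NBN (25.997 ± 1.57 CPM per kilobase, SD, n = 6) and RBBP8 (25.6 ± 2.02) were highest, within each other's spread, followed by MUS81 (16.005 ± 0.727) and UBE2T (11.9 ± 1.17). FANCF went from rank 22 of 38 in PBS to rank 7 in treated libraries and HELQ from rank 33 to 18, with little change in their own level, while POLQ went from rank 25 to 35 and FANCA from rank 19 to 30.

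Other genes of the pathway, taken from a list of 51, were measured next to the 38. Of 48 tested, 21 were called lower and 0 higher in both conjugates against PBS, with a median log2 fold change of −0.51. Over all genes tested in that comparison, 17.1% were called lower and 15.2% higher. The largest falls were those of DNA2, a nuclease of long-range resection (from 38.6 ± 15.5 CPM, SD, n = 3, to 5.89 ± 1.04 CPM, SD, n = 6), and TONSL, a reader of new chromatin at forks (from 72.3 ± 25.6 to 20.7 ± 1.44 CPM). TOP3A, the topoisomerase of the BLM complex, named for its role after its values were seen, was not called, at 34.6 ± 2.86 CPM in PBS and 29.4 ± 2.01 CPM in treated libraries (log2 −0.23, SE 0.08, adjusted p = 0.0327).

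In other repair pathways fewer genes were called lower, and 0 were called higher, beside 17.1% lower and 15.2% higher over all genes tested. The counts were 4 of 13 for end joining, with a median log2 fold change of −0.37, 6 of 18 for nucleotide excision repair (−0.21), 5 of 17 for base excision repair (−0.26) and 1 of 7 for mismatch repair (−0.38). The largest fitted fall was that of GTF2H4, a subunit of the repair factor TFIIH (log2 −2.57, SE 0.76, adjusted p = 0.0146), which was under 1 CPM in every library and overlapped between groups. Other genes that fell were POLM, a gap-filling polymerase of end joining (log2 −1.78, SE 0.18, adjusted p = 2.43e-05), and NEIL3, a glycosylase that also unhooks crosslinks (log2 −2.46, SE 0.28, adjusted p = 5.51e-05). PRKDC, the kinase of end joining, fell by 1.49 on the log2 scale. Differences between these lists were not tested.

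**Figure D4:**
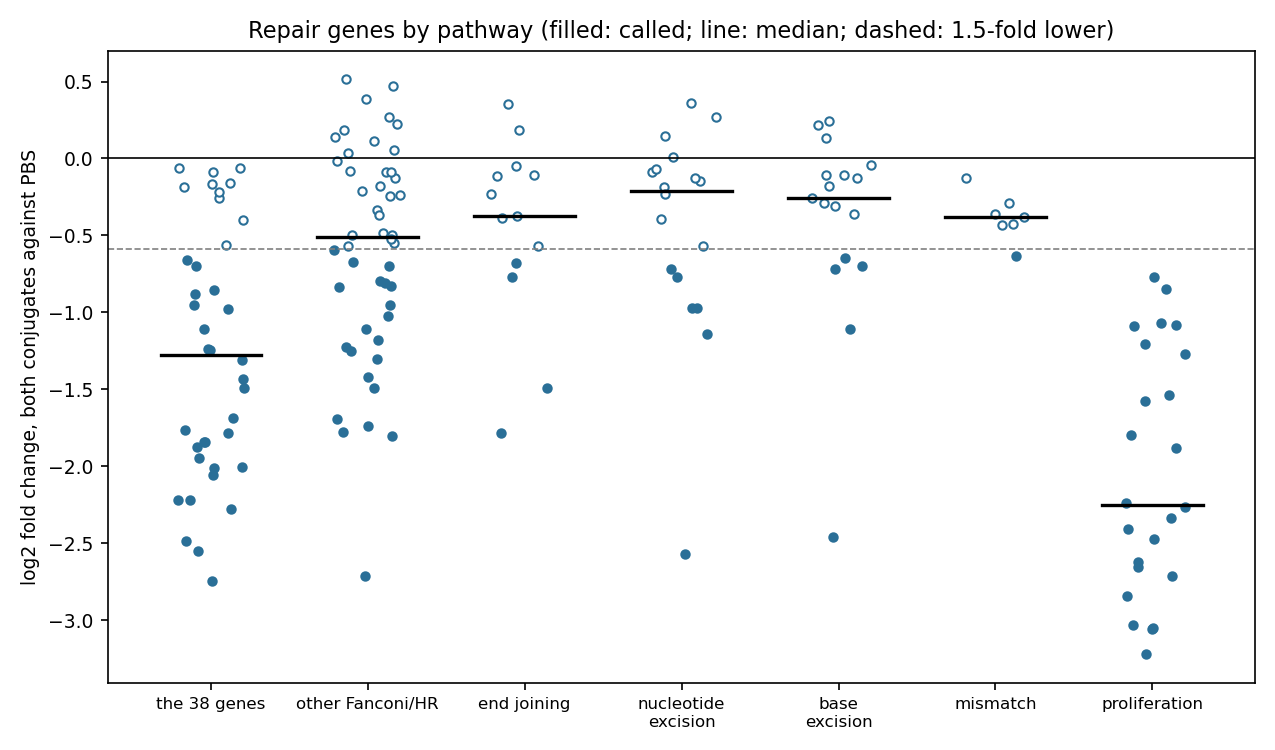
Log2 fold change in both conjugates against PBS of every tested gene in 7 lists, with called genes filled, the list median as a line and a 1.5-fold fall dashed. The medians lie at −1.28 for the 38 genes, between −0.51 and −0.21 for the other repair lists and at −2.25 for the proliferation list.

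P-DXd-titled and T-DXd-titled tumors were compared directly to ask whether the conjugates left different levels of these genes. None of the 38 genes was called in edgeR (0 in either direction, with 0.0273% of all genes called higher), and DESeq2 called 0 as well. At an unadjusted p under 0.05 there were 0 of the 38 genes and 3.69% of all genes tested. The smallest unadjusted p was 0.0541, for RAD54B, which was at 4.23, 3.54 and 3.13 CPM in P-DXd-titled and 2.85, 2.80 and 2.62 CPM in T-DXd-titled libraries (log2 difference 0.40, 95% interval −0.0086 to 0.81). FANCB had the largest difference, 0.76 on the log2 scale higher in P-DXd-titled, with a 95% interval from −0.07 to 1.58. POLQ differed by 0.32 (95% interval −0.02 to 0.67) and BRCA1 by 0.01, the lowest being RAD51D at −0.19. The log2 difference was positive for 29 of the 38 genes and negative for 9, beside 7046 negative of all 14653 genes tested. The median was 0.09 for the 38 genes and 0.0044 over all genes. The proliferation list leaned the same way, with 3 of 24 genes negative and a median of 0.26. For 31 genes the 95% interval of the difference lay within 1.5-fold either way, and for the other 7, FANCB, RAD54B, RMI2, POLQ, BRCA2, BLM and EME1, it reached past 1.5-fold.

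**Figure D5:**
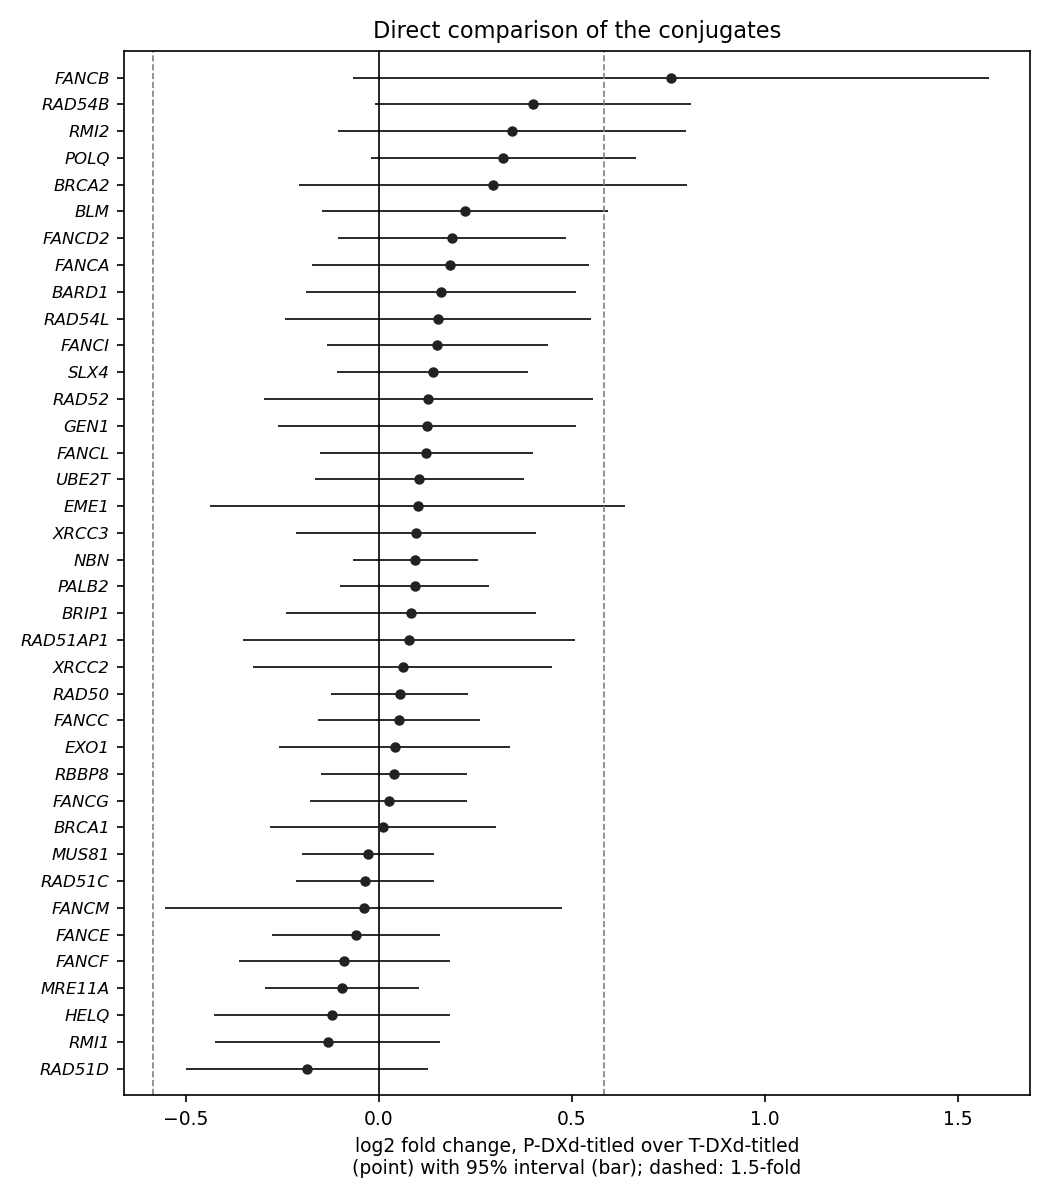
Log2 fold change of P-DXd-titled over T-DXd-titled libraries for each of the 38 genes, with the 95% interval as a bar and 1.5-fold differences dashed. All 38 intervals include 0, and 31 lie within the dashed lines.

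Replicates varied most in PBS, where the median coefficient of variation over the 38 genes was 20.7%, compared with 13.5% for the P-DXd-titled and 6.78% for the T-DXd-titled group. Without PBS replicate 1, 27 of the 38 genes were called lower for P-DXd-titled, 26 for T-DXd-titled and 27 for both conjugates against PBS. The median log2 fold change in both conjugates was then −1.13, FANCA stood at −2.15, FANCD2 at −1.47 and XRCC3 at −1.08, PALB2 (−0.49) and RAD51D (−0.56) lost their call through the fold change minimum, and RBBP8 (−0.59) gained one. Without P-DXd-titled replicate 2, the library with the high muscle counts, 24 genes were called lower in P-DXd-titled and 28 in both conjugates against PBS. In the single-conjugate comparisons, the call of PALB2, RAD51D, SLX4, XRCC3, FANCM or MRE11A was lost when at least 1 of the libraries was left out, and the other called genes kept theirs. RAD51D also lost its call in T-DXd-titled, and RBBP8 gained one, with a block on the first digit of the animal code. Overlap with another listed gene, whose reads cannot be assigned without strand information, concerned 14 of the 38 genes: EME1 with LRRC59, FANCA with ZNF276, FANCD2 with FANCD2OS, FANCF with GAS2, FANCI with POLG, FANCL with VRK2, GEN1 with SMC6, MRE11A with ANKRD49, MUS81 with CFL1 and EFEMP2, NBN with DECR1, RAD54B with FSBP, RAD54L with LRRC41, RMI2 with SOCS1, and XRCC3 with KLC1 and AL049840.1.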

How the data were processed

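RNA was extracted from xenograft tumor tissue and sequenced as TruSeq mRNA libraries, 3 per group, with an animal code of its own in each title. Per the study's methods and the submitters' processing notes, the authors used Cutadapt to trim reads, STAR to align them to GRCh38, featureCounts to count them per gene and compared groups with DESeq2. The deposited values are raw read counts per gene in a table for each conjugate, and the PBS libraries stand in both. The coordinates listed in the tables are those of an older build that is not named, since 0 of the 38 genes had the listed coordinates in GENCODE v44, and strand use in counting is not given in the sources used here.

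Counts were fitted across all genes with edgeR 4.0.16 in R 4.3.3 (TMM factors, filterByExpr, quasi-likelihood F test, Benjamini-Hochberg adjustment), and a gene was called where it changed by 1.5-fold or more with an adjusted p no higher than 0.05. Each conjugate was fitted with PBS alone, and both conjugates together with PBS on all 9 libraries. The fit gives no SE, so SE was taken as the absolute log2 fold change divided by the square root of F. The 95% intervals were built from that SE with the t distribution and are approximate. DESeq2 1.42.0 was an alternative, beside other scalings, filters, thresholds and single libraries left out. In simulated counts with 200 genes changed 3-fold, edgeR recovered 141 of 200 in P-DXd-titled against PBS (14992 genes), 143 of 200 in T-DXd-titled against PBS (14912 genes) and 170 of 200 in both conjugates against PBS (15073 genes), with 13, 15 and 4 false calls. The members were chosen by name as a functional set and no measured value enters their rule, but they, the other lists and the tests were chosen with earlier results of these data known. All members were accounted for by role, with values per library for the 4 largest falls and for at least 1 member of each role, and up to 2 genes with the largest change were named from other lists. Levels per kilobase used the canonical transcript of GENCODE v44. A few results for genes outside the 38 are not reported here.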

Additional observations from a re-analysis of the deposited data

Results flagged for a closer look

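Among the 6 treated libraries, 3 of the 38 genes had 1 library far above the others by Dixon's criterion, which chance meets in about 1 in 20 groups. FANCL was at 15.1 CPM in P-DXd-titled replicate 1, and the next highest treated library was at 12.2 CPM. BRIP1 was at 23.7 CPM in P-DXd-titled replicate 1, with the next at 17.8 CPM. RAD54L was at 7.86 CPM in P-DXd-titled replicate 2, with the next at 5.59 CPM.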

How the results depend on the processing

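The number of the 38 genes called lower ranged from 19 to 30 in P-DXd-titled, from 22 to 30 in T-DXd-titled and from 24 to 32 in both conjugates against PBS, lowest when the fold change minimum was tested directly (glmTreat) and highest without that minimum. When single libraries were left out it was 23 to 28, 26 to 28 and 27 to 29, respectively, and DESeq2 called 28 in each. No gene of the 38 was called higher, or called between the conjugates, under any alternative run. Of 1900 values of single genes under an alternative, 1831 kept their direction and their side of the threshold, 44 lost a call, 15 gained one and 10 changed sign, and 19 called genes kept their call under every setting in all 3 comparisons with PBS. The sign changes were in genes near 0. With single libraries left out, the log2 fold change of FANCE ranged from −0.19 to 0.12 in P-DXd-titled, −0.13 to 0.17 in T-DXd-titled and −0.16 to 0.15 in both conjugates, each highest without PBS replicate 1, and it was 0.0367 in T-DXd-titled with a block on the first digit of the animal code. That of FANCF ranged from −0.19 to 0.0253 in P-DXd-titled, highest without P-DXd-titled replicate 2, and from −0.0986 to 0.0708 in T-DXd-titled, where it was 0.0135 without PBS replicate 2, 0.0384 without PBS replicate 3, highest without T-DXd-titled replicate 1, and 0.00054 with upper-quartile factors. That of HELQ ranged from −0.26 to 0.0181 in T-DXd-titled, highest without PBS replicate 1. The cause was not tested. The labels do not say what the first digit of the animal code means. Blocking on it left 28 genes called lower in each comparison with PBS, but in T-DXd-titled RAD51D lost its call (log2 −0.72, adjusted p = 0.091 in edgeR) and RBBP8 gained one (−0.59, adjusted p = 0.0106). FANCB, which had the lowest count of any of the 38 genes, had the widest error (SE 0.35 in both conjugates against PBS). Other genes with few counts did not all have wide errors, with an SE of 0.14 for HELQ and 0.22 for the more abundant BRCA2.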
